A study of Mus musculus with 16 samples.

Results

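Fatty acid oxidation was followed through 36 genes for the enzymes and carriers of the mitochondrial and peroxisomal pathways, taken by gene name from a count table of 54532 genes in 16 RNA sequencing libraries. In the list 23 genes were grouped as mitochondrial, Acad11 and Eci2 among them, and 13 as peroxisomal, and all 36 were found once in the table. Gonadal fat of female C57BL/6 mice (white adipose tissue) was the source, digested with collagenase and parted into a mature adipocyte fraction and a stromal fraction, with magnetic sorting to enrich preadipocytes and adipocytes. Each library was bulk RNA of 1 fraction, and the sorting marker was not given in the sources used here. Control pups stayed with the dam until weaning on postnatal day 21. Stress pups were separated from the dam daily from postnatal day 2 to day 16 and were weaned early, on day 17. Mice fed the high-fat diet gave 4 libraries of control and 4 of stress preadipocytes, and 3 of control and 3 of stress adipocytes. Mice fed the low-fat diet gave 1 library each of control and stress preadipocytes, and low-fat adipocytes were not analysed here. The ages of the mice at collection were not given in the sources used here, and nothing stated that replicates came from separate mice, so p-values measure the spread between these libraries, which may be technical.

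Long-chain fatty acids are activated to acyl-CoA and cross into mitochondria through the carnitine shuttle, in which CPT1 on the outer membrane is the step that malonyl-CoA inhibits. Inside, repeated rounds of dehydrogenation, hydration, dehydrogenation and thiolysis shorten the chain and pass electrons to the respiratory chain. Peroxisomes shorten very long and branched chains with their own enzymes and hand the products to mitochondria. White adipocytes mainly store and release fatty acids, and the same oxidation genes are best known as targets of the PPAR nuclear receptors.

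Library totals ran from 14182130 to 23368821 counts. Control high-fat preadipocyte libraries 1 and 3 differed at 7.01% of the genes compared, against 43% to 79% for the 17 other pairs within groups. They were therefore counted as 1 sample in the tests and in mean FPKM (n = 3 for that group). The CPM ranges and medians below take both libraries. The 8 mature adipocyte markers summed to 12307 to 35838 CPM (counts scaled to library size) in adipocyte libraries and 51.6 to 314 CPM in preadipocyte libraries, and the 8 progenitor markers summed to 189 to 529.7 CPM and 4418 to 9714 CPM. Both fractions also held macrophage transcripts, with 8 markers summing to 1253 to 6810.4 CPM. Control adipocyte libraries 1 and 3 were of low complexity: the genes with 1 to 5 counts numbered 1.15 and 0.637 times those with 6 to 15 counts, against 1.55 to 2.23 times in the other libraries.

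Promoter stretches are shown for the peroxisomal thiolase paralogs, for the outer and inner carnitine transferases, and for a pair of genes that start beside each other, all chosen after their values were seen. RefSeq promoter windows (GRCm38.p6, 250 bases before to 50 bases after the start, 300 bases in all) were matched for 31 of the 36 genes, in 33 windows. Abcd2, Decr1, Hsd17b4, Acaa2 and Cpt1b were not matched. The letters GGGCGG, a box bound by SP1-type factors, lay on either strand in 24 of the 33 windows (72.7%), against 35.7% of all 32851 windows. The letters CCAAT lay in 13 (39.4%), against 37.4% of all windows. The direct repeat of AGGTCA with 1 base between the copies, to which PPAR and RXR bind, had no exact match in any of the 33 windows and 13 among all 32851 (0.0396%). With at most 2 mismatches it matched in 3 genes, Echs1, Etfa and Slc25a20 (9.09% of the 33 windows, against 3.86% of all). A match is a description of the letters, and the absence of one covers these windows alone. In the stretches below, each trimmed to the part of the 250 upstream bases without an annotated exon (GENCODE M21), capitals mark GGGCGG on either strand (CCGCCC where it lies on the other). The paralogs Acaa1a (chr9:119341160-119341293, plus strand, 134 bases) and Acaa1b (chr9:119157094-119157343, minus strand, 250 bases) encode the peroxisomal thiolase, and the first held 3 such boxes and the second held 0. The Acaa1a stretch lies before the RefSeq start but inside the gene as deposited, and its last base is 1617 bases after the deposited start.

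Acaa1a: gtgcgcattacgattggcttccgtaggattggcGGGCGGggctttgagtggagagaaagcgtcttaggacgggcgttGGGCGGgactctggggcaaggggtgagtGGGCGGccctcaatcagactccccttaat

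Acaa1b: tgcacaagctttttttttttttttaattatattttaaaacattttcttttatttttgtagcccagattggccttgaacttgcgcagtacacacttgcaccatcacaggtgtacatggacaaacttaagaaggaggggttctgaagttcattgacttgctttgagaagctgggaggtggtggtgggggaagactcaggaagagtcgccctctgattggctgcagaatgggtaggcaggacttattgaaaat

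Cpt1a (chr19:3323051-3323284, plus strand, 234 bases) and Cpt2 (chr4:107923611-107923839, minus strand, 229 bases) encode the outer and inner carnitine palmitoyltransferases, whose levels parted between the fractions. Each stretch held 2 boxes.

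Cpt1a: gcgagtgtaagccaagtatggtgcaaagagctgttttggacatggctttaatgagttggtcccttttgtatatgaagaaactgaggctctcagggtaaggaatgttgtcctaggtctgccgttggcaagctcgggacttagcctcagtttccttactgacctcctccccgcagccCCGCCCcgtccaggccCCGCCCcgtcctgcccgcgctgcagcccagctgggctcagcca

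Cpt2: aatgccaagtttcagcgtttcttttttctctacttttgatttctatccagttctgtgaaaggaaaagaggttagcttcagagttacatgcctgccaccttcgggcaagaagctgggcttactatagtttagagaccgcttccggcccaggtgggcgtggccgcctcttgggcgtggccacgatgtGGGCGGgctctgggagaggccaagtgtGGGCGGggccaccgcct

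Hadha and Hadhb, which encode the subunits of the mitochondrial trifunctional protein, lie head to head on chromosome 5, on opposite strands, with 85 bases between them in the deposited coordinates. That gap (chr5:30155163-30155247) is shown in the direction of Hadhb and held 2 boxes.

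Hadhb: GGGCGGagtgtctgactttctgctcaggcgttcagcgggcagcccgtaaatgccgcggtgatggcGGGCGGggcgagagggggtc

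Across the fractions on the high-fat diet, 34 of the 36 genes were higher in mature adipocytes than in preadipocytes and 0 were lower (edgeR quasi-likelihood test, Benjamini-Hochberg adjusted p below 0.05 over 17948 genes). Among all genes tested, 26.9% were called higher and 32.9% lower. The call covered 21 of 23 mitochondrial and 13 of 13 peroxisomal genes, and Cpt1a and Cpt1b were the genes not called. The median log2 fold change was 2.73 over the 36 genes, 2.73 over the mitochondrial and 2.73 over the peroxisomal ones, and -0.22 over all genes tested. Of the 36, 32 were called at least 2-fold higher (19.0% of all genes) and 24 at least 4-fold higher (8.46% of all genes). In 31 of the 36 every adipocyte library lay above every high-fat preadipocyte library, which held for 17.6% of all genes tested. The 36 genes took 0.131% to 0.186% of all counts in the 10 preadipocyte libraries and 0.613% to 1.10% in the 6 adipocyte libraries. In bulk RNA, more cells of a type and more RNA per cell cannot be told apart. Other cell types moved with the fraction too. All 8 endothelial markers (422 to 2149 CPM summed in adipocytes, 84.4 to 652 CPM in high-fat preadipocytes), 5 of 6 skeletal muscle markers (128 to 277 CPM against 6.02 to 45.3 CPM) and 5 of 5 thermogenic markers (24.1 to 599.9 CPM against 2.95 to 6.38 CPM) were higher in adipocytes. All 7 mesothelial markers were called lower in adipocytes (35.6 to 141 CPM summed against 130 to 1191 CPM in high-fat preadipocytes). So were 4 of 4 B cell markers (6.27 to 17.5 CPM against 15.4 to 98.4 CPM). Calls were also lower for 2 of 4 T and NK cell, 1 of 4 erythroid and 1 of 5 urothelial markers. No defining marker of these lists was at 0 throughout either fraction, and the part of these cells in the result was not tested.

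**Figure D1:**
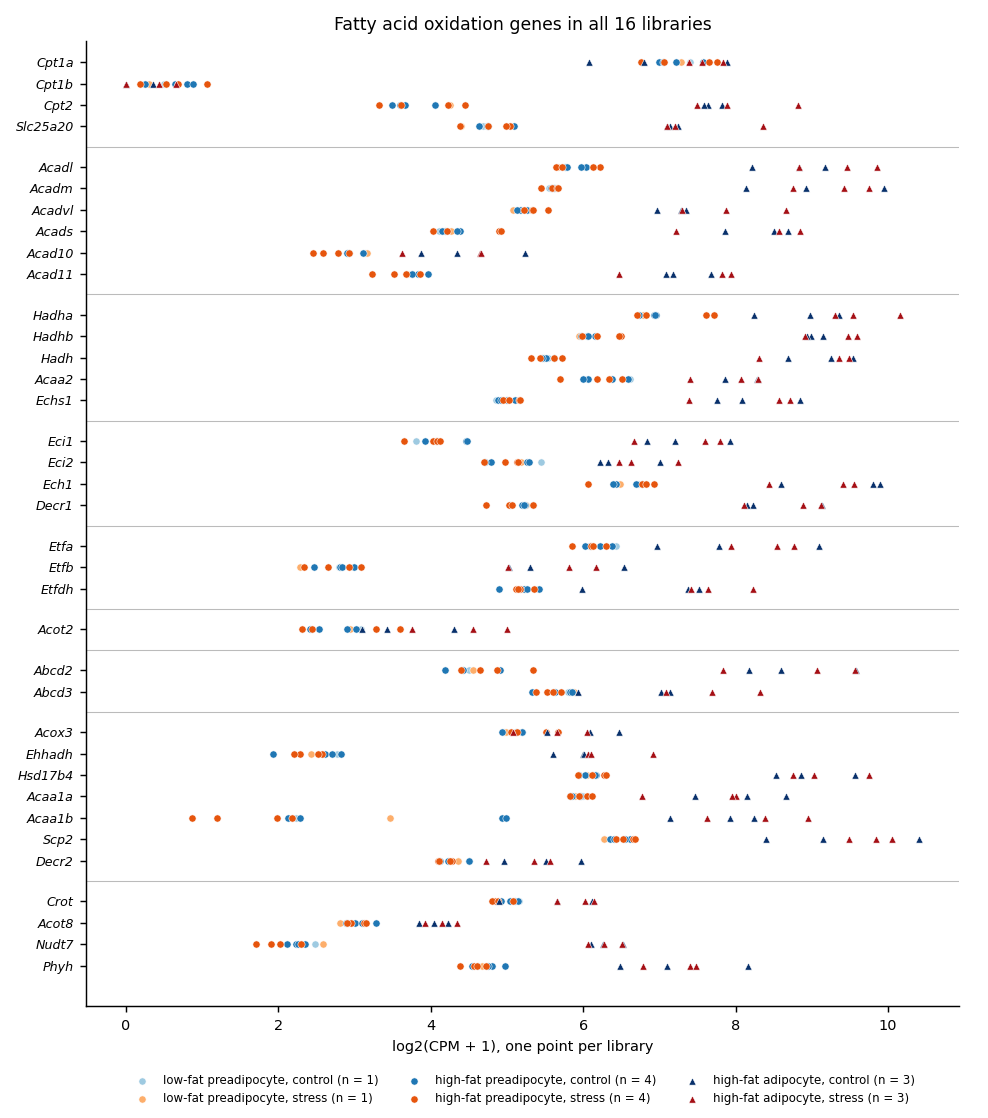
Level of each of the 36 genes in all 16 libraries as log2(CPM + 1), grouped by pathway step from the carnitine shuttle at the top to peroxisomal exit at the bottom; circles are preadipocytes, triangles are adipocytes. In 31 of the 36 genes all triangles lie to the right of all high-fat circles, and Cpt1a and Cpt1b at the top are the exceptions that were not called.

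The carnitine shuttle was split. Cpt2, the inner-membrane transferase that returns the acyl group to CoA, had 8.97 to 20.8 CPM in the high-fat preadipocyte libraries (median 11.4) and 179.9 to 450.4 CPM in the adipocyte libraries (median 211). The fractions did not overlap, and the difference was 18.1-fold (log2 fold change 4.18 ± 0.26 SE, adjusted p = 2.17e-08). Slc25a20, the carnitine-acylcarnitine carrier, was 6.34-fold higher (2.66 ± 0.23, adjusted p = 2.42e-07). Cpt1a, the outer-membrane entry enzyme, had 107 to 215 CPM in preadipocytes (median 140.3) and 66.7 to 236 CPM in adipocytes (median 177). Its fractions overlapped over most of their range, with a log2 fold change of 0.05 ± 0.26 (adjusted p = 0.877). The sign of that small value turned under 9 of 24 alternatives. Cpt1b, the muscle-type paralog, was at 0 counts in control adipocyte libraries 1 and 3 and stress adipocyte library 1, and at 5 to 9 counts in the other 3, against 3 to 23 counts in the high-fat preadipocyte libraries. At this depth its log2 fold change of -1.53 ± 0.88 was not called (adjusted p = 0.149). Gm44502, a protein-coding gene of the same strand, overlaps Cpt1b over its whole length (9459 bases). How reads shared by both genes were counted was not given in the sources used here, so the level of Cpt1b is uncertain. Levels are compared between genes in FPKM, fragments scaled to gene length and library size. The deposited FPKM divides by the deposited gene length, which was 0.96 to 5.32 times the longest protein-coding transcript (GENCODE M21) of the 36 genes (median 1.32), so an order between genes depends on the length used. In deposited FPKM Cpt2 stood at 0.140 to 0.210 times the level of Cpt1a in all 10 preadipocyte libraries and at 1.43 to 6.05 times in the 6 adipocyte libraries. Scaled to transcript length instead, the ratios were 0.142 to 0.213 and 1.44 to 6.13, so on both lengths Cpt1a was the higher in every preadipocyte library and Cpt2 in every adipocyte library. This ratio was chosen after its values were seen, and no test was made of it.

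All 6 genes grouped as acyl-CoA dehydrogenases, the family that opens each round of mitochondrial oxidation, were higher in adipocytes. Acads, for short chains, ranged from 15.3 to 29.3 CPM in preadipocytes (median 18.4) and from 147 to 458 CPM in adipocytes (median 372), which was 16.3-fold (4.02 ± 0.28, adjusted p = 5.20e-08). Acadm (medium chains) was 13.2-fold, Acadl (long chains) 9.51-fold and Acadvl (very long chains) 5.36-fold higher, and the differences between these folds were not tested. The FPKM ratio of Acads to Acadvl was 0.399 to 0.876 in the preadipocyte libraries and 1.12 to 3.90 in the adipocyte libraries, with no overlap (0.391 to 0.858 and 1.10 to 3.82 on transcript length). That pair was set side by side after its values were seen, and no test was made of it. Acad11, which acts on long chains, was 14.7-fold higher, and Acad10, the least changed of the group, had 4.47 to 7.62 CPM (median 6.45) in preadipocytes and 11.3 to 36.8 CPM (median 21.7) in adipocytes, which was 3.52-fold (1.82 ± 0.25, adjusted p = 2.52e-05).

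The 5 genes of hydration, the following dehydrogenation and thiolysis were all higher. Hadh, the short-chain hydroxyacyl-CoA dehydrogenase, had 38.9 to 51.7 CPM in preadipocytes (median 44.4) and 315 to 747 CPM in adipocytes (median 632), a 12.7-fold difference (3.67 ± 0.22, adjusted p = 1.42e-08). Echs1, the short-chain enoyl-CoA hydratase, was 10.1-fold higher. Acaa2, the mitochondrial thiolase, differed least, with 50.7 to 95.6 CPM (median 75.5) against 168 to 314 CPM (median 289), which was 3.48-fold (1.80 ± 0.19, adjusted p = 1.81e-06). Of the trifunctional protein subunits, Hadhb was 8.25-fold (3.04 ± 0.16, adjusted p = 6.96e-09) and Hadha 4.81-fold higher (2.27 ± 0.24, adjusted p = 2.03e-06). The subunits form 1 complex, and their genes start 85 bases apart in the stretch shown above. The FPKM ratio of Hadha to Hadhb was 1.18 to 1.81 in preadipocyte libraries and 0.465 to 1.12 in adipocyte libraries. These ranges did not overlap, nor did those on transcript length, 0.799 to 1.22 and 0.314 to 0.757. This ratio was also chosen after its values were seen.

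The 4 auxiliary enzymes that let unsaturated chains enter the rounds were higher, from Eci2 (3.22-fold) to Decr1 (12.2-fold). Decr1, the mitochondrial dienoyl-CoA reductase, had 25.5 to 39.5 CPM in preadipocytes (median 34.1) and 275 to 561 CPM in adipocytes (median 386, log2 fold change 3.61 ± 0.23, adjusted p = 2.11e-08). Eci2, an enoyl-CoA isomerase also found in peroxisomes, had 25.0 to 38.0 CPM (median 32.2) and 73.3 to 151 CPM (median 92.9, 1.69 ± 0.19, adjusted p = 3.99e-06). Eci1 was 10.8-fold and Ech1 6.62-fold higher, and all 4 genes were without overlap.

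Electron transfer flavoprotein and its dehydrogenase carry electrons from the acyl-CoA dehydrogenases to ubiquinone. Etfb had 4.04 to 7.50 CPM in preadipocytes (median 6.07) and 31.3 to 91.8 CPM in adipocytes (median 46.7), a 9.21-fold difference (3.20 ± 0.28, adjusted p = 3.57e-07). Its partner subunit Etfa had 56.7 to 82.4 CPM (median 68.4) and 124 to 545 CPM (median 309), which was 4.61-fold (2.21 ± 0.28, adjusted p = 1.05e-05), and Etfdh was 4.88-fold higher. Acot2, a mitochondrial acyl-CoA thioesterase, overlapped between fractions, with 3.95 to 11.1 CPM (median 5.61) and 7.57 to 31.0 CPM (median 15.7). Its difference of 2.64-fold was called (1.40 ± 0.32, adjusted p = 0.00149) but not in control libraries alone (1.14, adjusted p = 0.0881). Its value is uncertain, since 24.5% of the 50-base stretches of its transcript also occur in that of Acot1, a neighbouring thioesterase.

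**Figure D2:**
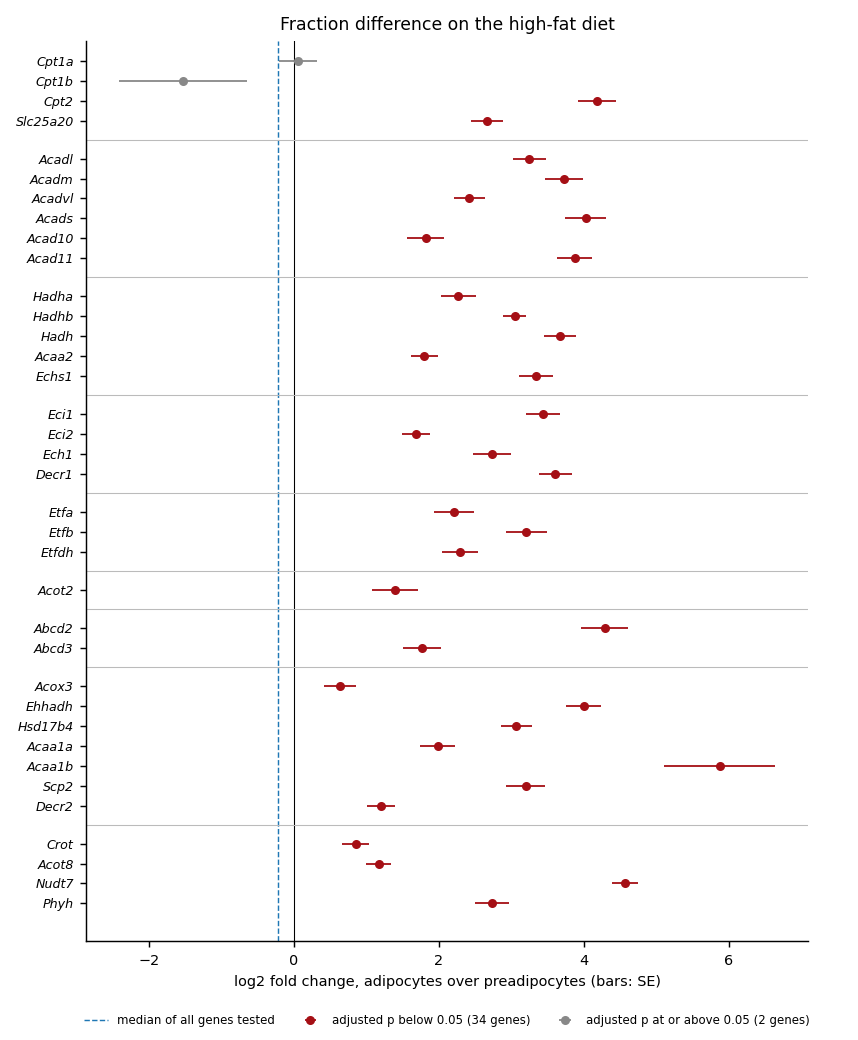
Log2 fold change of adipocytes over preadipocytes on the high-fat diet for the 36 genes in the same order of steps (points, with SE as bars); red marks the 34 genes with adjusted p below 0.05 and the dashed line the median of all genes tested at -0.22. The points run from 0.63 for Acox3 to 5.87 for Acaa1b among the called genes, and Cpt1a sits at 0.05.

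Both transporters of peroxisomal import were higher. Abcd2, which carries very long-chain acyl-CoA, had 17.2 to 39.6 CPM in preadipocytes (median 22.2) and 228 to 763 CPM in adipocytes (median 459.9), a 19.5-fold difference (4.28 ± 0.32, adjusted p = 8.22e-08). Abcd3, the more general transporter of the same membrane, had 39.0 to 56.6 CPM (median 48.1) and 60.0 to 319 CPM (median 138), which was 3.41-fold (1.77 ± 0.26, adjusted p = 4.81e-05). The FPKM of Abcd2 was 0.336 to 0.920 times that of Abcd3 in all 10 preadipocyte libraries and 1.23 to 6.2 times in the 6 adipocyte libraries. On transcript length these ratios were 0.191 to 0.523 and 0.699 to 3.53, so Abcd3 was the higher in every preadipocyte library on both lengths, while Abcd2 was the higher in 6 adipocyte libraries on gene length and in 5 of 6 on transcript length.

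In the peroxisomal spiral 7 of 7 genes were higher. Acaa1b had the largest fold change of the 36 genes, 58.6-fold (5.87 ± 0.77, adjusted p = 1.44e-05). Its adipocyte libraries held 139.7 to 496 CPM (median 272). Its preadipocyte values were divided: 29.7 and 30.8 CPM in the near-identical control libraries 1 and 3, 3.37 and 3.85 CPM in control libraries 2 and 4, and 0.825 to 3.53 CPM in the 4 stress libraries. The same libraries 1 and 3 stood apart in markers of urothelium, the bladder lining, with Upk1a at 139 and 143 CPM and Krt5 at 150.3 and 143 CPM, against at most 2.46 and 4.57 CPM in the other high-fat preadipocyte libraries. Upk1a was also present in control adipocyte libraries 1 and 3 (66.9 and 28.1 CPM). The part of such cells in the Acaa1b level was not tested. Without the pair the difference was 108-fold (6.76, adjusted p = 1.02e-07), and in control libraries alone it was 18.1-fold (4.18, adjusted p = 0.00751). Acaa1a, its paralog, had 55.8 to 68.4 CPM in preadipocytes (median 61.0) and 108 to 406 CPM in adipocytes (median 251), a 3.95-fold difference (1.98 ± 0.24, adjusted p = 6.15e-06). The FPKM of Acaa1b was 0.0271 to 0.142 times that of Acaa1a in the other 6 high-fat preadipocyte libraries, 1.2 and 1.12 times in the near-identical pair, and 1.11 to 4.54 times in the adipocyte libraries. That order rests on the deposited length of Acaa1a, 4414 bases against 1762 for its longest transcript. On transcript length the ratio was 0.555 and 0.518 in the near-identical pair and 0.517 to 2.10 in the adipocyte libraries, above 1 in 4 of 6, and below 1 in control adipocyte libraries 1 (0.776) and 3 (0.517). These paralogs are alike enough for reads to be shared: 35.5% of all 50-base stretches and 13.3% of all 150-base stretches of the longest Acaa1b transcript also occur in that of Acaa1a, so the split of reads between them is uncertain.

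Ehhadh, the bifunctional hydratase and dehydrogenase of straight chains, was 16.0-fold higher (4.0 ± 0.24, adjusted p = 1.44e-08), Scp2, which holds the thiolase of branched chains, 9.18-fold, and Hsd17b4, the second bifunctional enzyme, 8.39-fold. Decr2, the peroxisomal dienoyl-CoA reductase, was 2.30-fold higher. Acox3, an oxidase of branched chains, changed least among the called genes. It had 29.5 to 49.9 CPM in preadipocytes (median 34.8) and 32.9 to 87.9 CPM in adipocytes (median 57.4), with overlap, and its 1.55-fold difference (0.63 ± 0.22, adjusted p = 0.0219) was lost under 8 of 24 alternatives. Leaving out control preadipocyte library 2, control adipocyte library 3 or stress adipocyte library 1 each took it to an adjusted p of 0.0588, 0.0502 and 0.0635.

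The genes of peroxisomal exit and alpha-oxidation were higher in 4 of 4 cases. Nudt7, a diphosphatase that degrades CoA in peroxisomes, had 2.27 to 4.08 CPM in preadipocytes (median 3.51) and 65.9 to 90.7 CPM in adipocytes (median 75.9). The 23.6-fold difference (4.56 ± 0.18) gave the smallest adjusted p of all 17948 genes, 9.37e-10. Phyh, which starts the alpha-oxidation of phytanic acid, was 6.64-fold and Acot8, a peroxisomal thioesterase, 2.25-fold higher. Crot, the carnitine octanoyltransferase that hands shortened chains on to mitochondria, had 26.8 to 34.2 CPM (median 30.6) and 28.8 to 69.7 CPM (median 56.7), which overlapped through control adipocyte library 3 alone. Its difference was 1.81-fold (0.85 ± 0.19, adjusted p = 0.00133) and was not called in control libraries alone (0.61, adjusted p = 0.211).

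Per deposited gene length, the order of the genes shifted with the fraction. In preadipocytes Acaa2 (51.1 ± 10.3 FPKM, SD, n = 7), Ech1 (44.6 ± 8.85), Etfa (38.9 ± 4.34) and Cpt1a (37.9 ± 10) were the 4 highest, and each lay within 1 SD of the next. In adipocytes Ech1 (285 ± 121 FPKM, n = 6), Acadl (273 ± 113) and Scp2 (229.6 ± 111) led, each again within 1 SD of the next. Cpt1a kept nearly the same level (36.3 ± 13.5 FPKM) and passed from rank 4 to rank 22 of 36, while Acaa1b passed from rank 29 (3.36 ± 5.33 FPKM) to rank 10 (139.8 ± 65.1 FPKM). On transcript length the same 4 genes led in preadipocytes, with Ech1 first, and Ech1, Hadh and Scp2 led in adipocytes. Cpt1a then passed from rank 4 to rank 27 and Acaa1b from rank 30 to rank 12. Cpt1b was last in both fractions on both lengths, though its counts are uncertain because a gene of the same strand overlaps all of it. Of the 36 genes, 20 overlap another annotated gene (11 of them a protein-coding one, such as Cpt1b and Etfb with a gene of the same strand), and whether reads were counted by strand was not given in the sources used here.

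**Figure D3:**
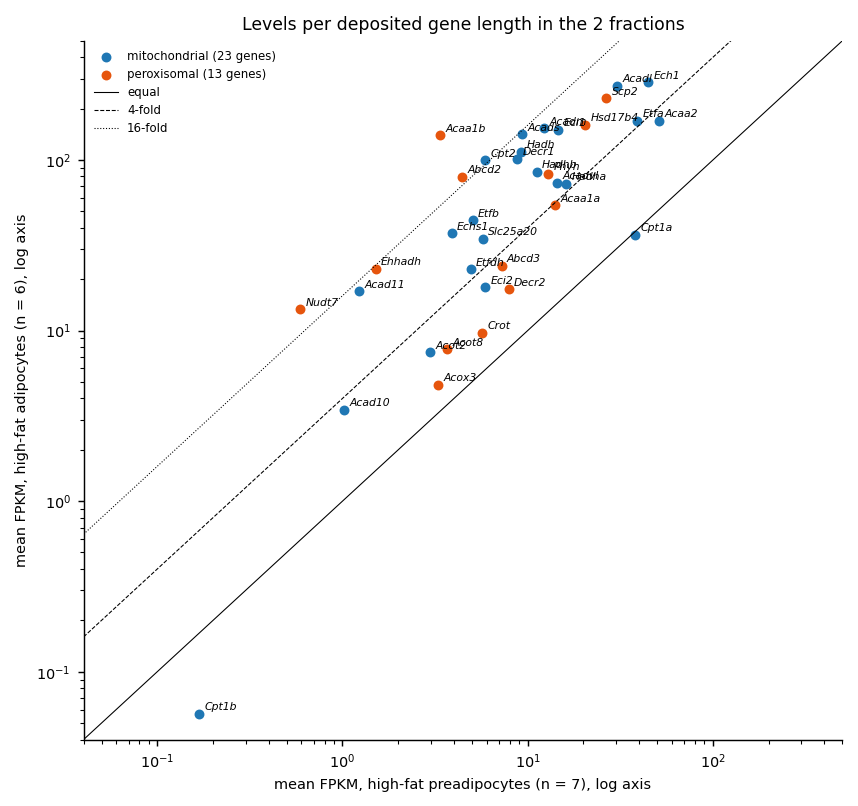
Mean deposited FPKM (per deposited gene length) of each gene in high-fat preadipocytes (horizontal, log axis, n = 7) against high-fat adipocytes (vertical, log axis, n = 6), with lines for equal levels and for 4-fold and 16-fold differences. Cpt1a lies on the line of equal levels and Cpt1b below it, while Cpt2, Abcd2, Nudt7 and Acaa1b lie above the 16-fold line.

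**Figure D4:**
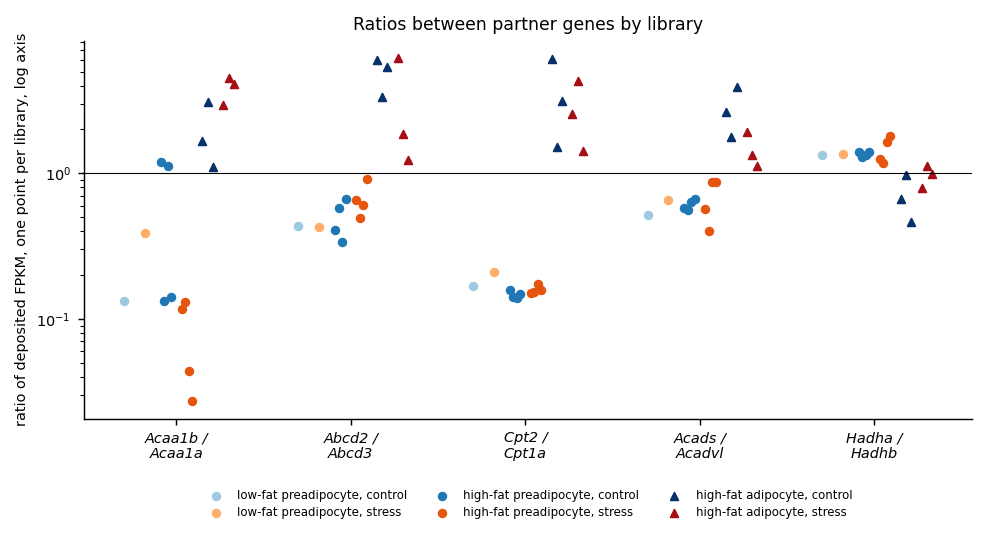
Ratio of deposited FPKM, per deposited gene length, between partner genes in each library (log axis), by group. On this length, but not on transcript length, Acaa1b to Acaa1a is above 1 in all adipocyte libraries and in the near-identical pair of control preadipocyte libraries. The ratios of Abcd2 to Abcd3, Cpt2 to Cpt1a and Acads to Acadvl are below 1 in all 10 preadipocyte libraries and above 1 in all 6 adipocyte libraries (5 of 6 for Abcd2 to Abcd3 on transcript length). Hadha to Hadhb goes the other way, with every preadipocyte library above every adipocyte library.

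The spread between libraries was wider in adipocytes. The coefficient of variation of CPM was larger there for 34 of the 36 genes, with a median of 39.7% against 16.1% in preadipocytes, and larger for 80.5% of all genes. Stress adipocyte library 2 held the highest value of 18 of the 36 genes and stress adipocyte library 3 the lowest of 17. Control adipocyte library 3, of low complexity, had the lowest Etfa (124 CPM), Etfdh (62.5 CPM) and Hadha (300.5 CPM) yet the highest Ech1 (953 CPM) and Hadh (747 CPM). Genes of the pathway thus stood at opposite ends of their range within that library.

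The remaining genes of the pathway, from lists chosen with earlier results of these data known, also differed mostly upward in adipocytes. Among all 17948 genes tested, 26.9% were called higher and 32.9% lower. Peroxisome biogenesis factors were higher in 16 of 16 cases (median log2 fold change 1.81), with Pex16 at 4.35 ± 0.25 and Pex11a, which divides peroxisomes, at 3.47 ± 0.26. Other peroxisomal enzymes were higher in 10 of 11 tested, among them catalase (Cat) at 3.48 ± 0.23. Other acyl-CoA dehydrogenases and related enzymes were higher in 10 of 10 (median 2.07) and mitochondrial import and outer membrane genes in 9 of 10 (median 1.37).

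The lists of acyl-CoA synthetases and of the carnitine, malonyl-CoA and CoA gate were mixed, where 26.9% of all genes tested were called higher and 32.9% lower. Of 5 acyl-CoA synthetases, Acsl1 was higher (6.25 ± 0.34), Acsl3 (-0.89 ± 0.32) and Acsl6 (-3.87 ± 0.71) were lower, and Acsl4 (-0.46) and Acsl5 (0.15) were not called. Acsl6 was barely detected, at 0.571 to 2.63 CPM in high-fat preadipocytes and 0 to 0.255 CPM in adipocytes. Of 7 genes of the carnitine, malonyl-CoA and CoA gate, 5 were higher and Cpt1c, a brain-type paralog, was lower (-3.06 ± 0.38). Those higher included both sides of malonyl-CoA turnover, the carboxylase Acacb (4.04 ± 0.53, adjusted p = 1.37e-05) and the decarboxylase Mlycd (3.39 ± 0.24, adjusted p = 5.01e-08). Of 7 thioesterases tested, 4 were higher and 0 lower.

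Of 13 regulators, 9 were higher and 1 was lower, against 26.9% and 32.9% of all genes tested. Pparg (2.73 ± 0.21), Ppara (2.55 ± 0.54) and Ppargc1b (2.03 ± 0.38) were among those higher, and the deacetylase Sirt1 was lower (-1.52 ± 0.22). Ppara was low, at 0.493 to 2.73 CPM in high-fat preadipocytes and 2.12 to 24.2 CPM in adipocytes. Ppargc1b was low too, at 0.894 to 3.30 CPM and 3.12 to 18.1 CPM, and both genes overlapped between the fractions. Ppargc1a, the coactivator of mitochondrial biogenesis, was not called (1.46 ± 1.06, adjusted p = 0.249). Its near-identical control preadipocyte libraries 1 and 3 held 8.12 and 9.95 CPM, against 0 to 1.94 CPM in the other high-fat preadipocyte libraries. Its adipocyte libraries held 0.258 to 9.50 CPM. Oxct1, which uses ketone bodies, was higher (2.36 ± 0.22).

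Early life stress in high-fat preadipocytes, the comparison that asks whether separation and early weaning altered these genes, gave a call for 0 of the 36 genes and for 0% of 17129 genes tested (edgeR, smallest adjusted p = 0.973). At an unadjusted p below 0.05 there was 1 of the 36 genes, against 2.90% of all genes, and the median log2 fold change was 0.01 over the 36 and 0.02 over all. DESeq2 called 0 genes higher and 4 lower among all genes, and 0 of the 35 members to which it gave an adjusted p. It gave none to Acaa1b. The gene below an unadjusted 0.05 was Acaa1b (log2 fold change -2.59 ± 0.86, adjusted p = 0.973 with edgeR), whose values are given above. Without the near-identical control pair it was -0.76, and the groups otherwise lay at 3.37 and 3.85 CPM against 0.825 to 3.53 CPM. The other genes with the lowest p-values were Crot (-0.16 ± 0.12) and Acad10 (-0.30 ± 0.22) downward and Acadvl (0.21 ± 0.12), Hadhb (0.28 ± 0.18) and Hadha (0.45 ± 0.32) upward, each with an adjusted p of 0.973.

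Hadha showed how the stress group was divided. Its control libraries held 121, 105, 123 and 122 CPM and its stress libraries 103, 112, 195 and 210 CPM. Stress libraries 3 and 4 were high and stress libraries 1 and 2 lay within or near the control range. The same 2 libraries had the highest summed macrophage markers of the high-fat preadipocytes, 6018 and 6810.4 CPM, against 1292 to 3434 CPM in the other 6. Hadhb (89.0 and 87.9 CPM against 61.8 to 71.6 CPM), Cpt1a (215 and 201 CPM against 107 to 189 CPM) and Acads (28.7 and 29.3 CPM against 15.3 to 19.9 CPM) were also highest in these 2 libraries. Other genes of the pathway did not follow. Among the high-fat preadipocytes, stress library 3 held the highest value of 8 genes and the lowest of 3. Stress library 4 held the highest of 9 and the lowest of 8. Without stress libraries 3 and 4 the log2 fold changes of Hadha and Hadhb were -0.18 and -0.02, and the part of macrophages in these levels was not tested.

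In high-fat adipocytes 35 of the 36 genes passed the filter on low counts (Cpt1b did not), and early life stress gave a call for 0 of them and for 0% of 14485 genes (edgeR, smallest adjusted p = 0.9996). At an unadjusted p below 0.05 there was 1 of the 35, against 2.88% of all genes, and the median log2 fold change was 0.17 over the 35 and -0.01 over all. The medians of the mitochondrial (0.19) and peroxisomal genes (0.08) moved with single libraries. Leaving out 1 at a time gave -0.03 (without stress library 2) to 0.51 (without control library 1) for the mitochondrial genes, and -0.03 (without control library 3) to 0.53 (without control library 1) for the peroxisomal genes. DESeq2 called 1 gene higher and 8 lower among all genes, and 0 of the 35. The gene below an unadjusted 0.05 was Abcd3, at 140.2, 128.5 and 60.0 CPM in control libraries and 135, 319 and 205 CPM in stress libraries (0.98 ± 0.43, edgeR adjusted p = 0.9996). The groups overlapped, and the value was 0.62 without stress library 2. Acadvl had 162, 155 and 124 CPM against 234, 405 and 156 CPM (0.82 ± 0.39), and Hadha 501, 657 and 300.5 CPM against 746, 1146 and 629.5 CPM (0.77 ± 0.39). Acaa1a (-0.53 ± 0.43), Acox3 (-0.47 ± 0.37) and Decr2 (-0.32 ± 0.38) had the lowest p-values downward. Without the low-complexity control libraries 1 and 3, Acaa1a was 0.20 and Decr2 0.30. Ehhadh was the one gene without overlap, at 62.9, 63.5 and 47.5 CPM in control and 66.0, 120.1 and 68.0 CPM in stress libraries, a pattern that 4.13% of all genes showed in the upward direction. The summed thermogenic markers moved with the groups, 24.1 to 134 CPM in control and 269 to 599.9 CPM in stress adipocytes, and their part in these values was not tested.

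**Figure D5:**
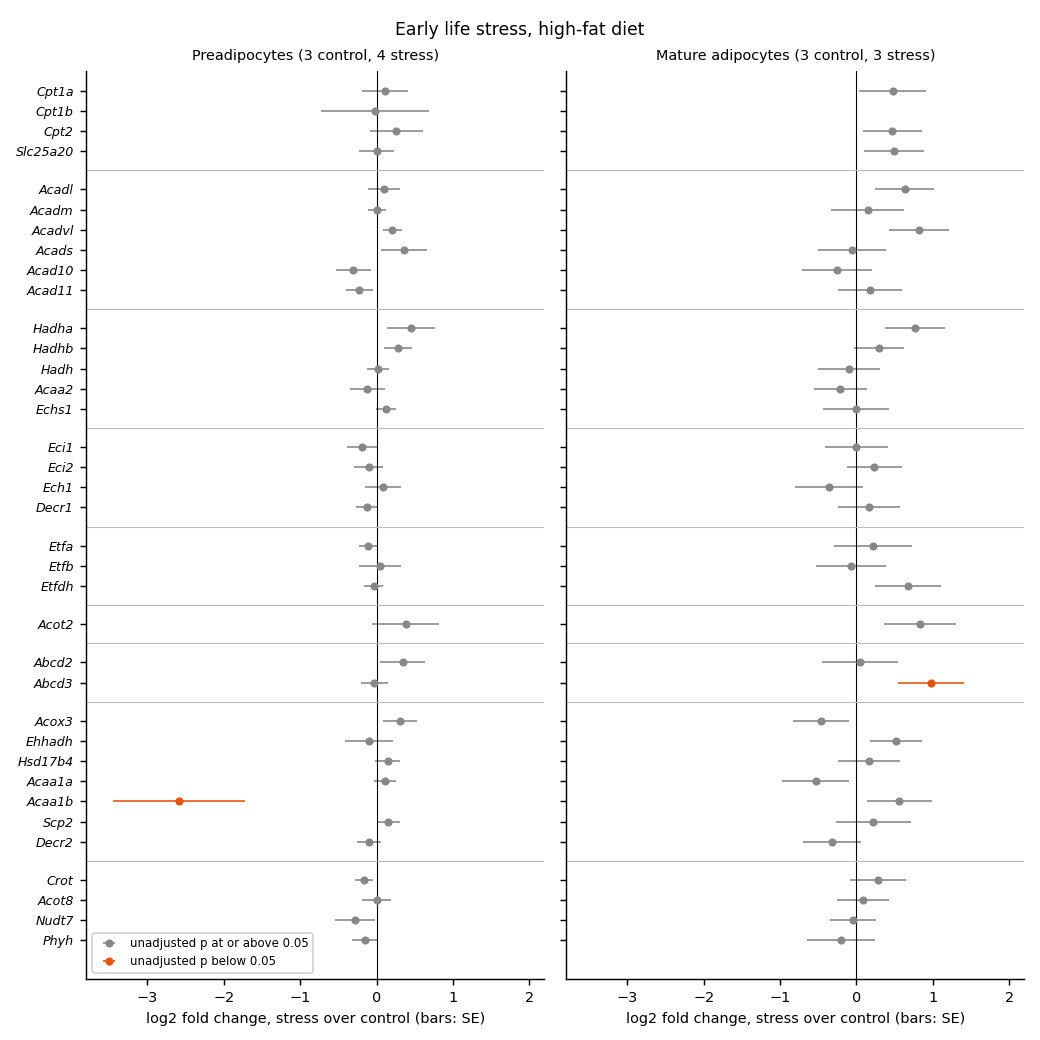
Log2 fold change of stress over control for each gene (points, with SE as bars) in high-fat preadipocytes on the left and high-fat adipocytes on the right, in the order of pathway steps; orange marks an unadjusted p below 0.05. Acaa1b at -2.59 on the left and Abcd3 at 0.98 on the right are the orange points, and no gene in either panel passed the adjusted threshold.

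The difference of the stress effect between fractions was tested as an interaction over 17948 genes, and 0 of the 36 genes and 0% of all genes were called (edgeR, smallest adjusted p = 0.934). At an unadjusted p below 0.05 there were 2 of the 36, against 4.86% of all genes. DESeq2 called 1 gene higher and 2 lower among all genes, and 0 of the 36. The genes below an unadjusted 0.05 were Acaa1b (3.13 ± 1.02), which was 1.33 without the near-identical pair, and Abcd3 (1.05 ± 0.46), each with an edgeR adjusted p of 0.934. Acadvl (0.65 ± 0.39) upward and Acox3 (-0.72 ± 0.41), Acaa1a (-0.60 ± 0.45) and Ech1 (-0.40 ± 0.51) downward had the next lowest p-values. Without the low-complexity control adipocyte libraries 1 and 3 the value was 0.14 for Acaa1a and 0.58 for Ech1. On simulated counts the interaction test recovered 25.5% of 200 genes changed 4-fold, so many differences of that size would be missed.

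The high-fat against low-fat comparison in preadipocytes gave a call for 0 of the 36 genes and for 0% of 19998 genes (edgeR, smallest adjusted p = 0.208), and at an unadjusted p below 0.05 for 0 of the 36 against 12.3% of all genes. DESeq2 called 271 genes higher and 137 lower among all genes, and 0 of the 35 members to which it gave an adjusted p (all but Acaa1b). The median log2 fold change was 0.01 over the 36 genes and 0.02 over all. Nudt7 came nearest, with 2.27 to 4.08 CPM on the high-fat diet (median 3.51) and 4.60 and 4.99 CPM on the low-fat diet (-0.56 ± 0.25, edgeR adjusted p = 0.417). Its groups did not overlap, and neither did those of Acad10, with 4.47 to 7.62 CPM against 7.78 and 7.97 CPM (-0.37 ± 0.23), where 7.96% of all genes showed such a pattern downward. Scp2, with 80.4 to 102 CPM against 76.4 and 76.5 CPM (0.25 ± 0.15), and Hadhb, with 61.8 to 89.0 CPM against 61.7 and 60.6 CPM, did not overlap upward, as did 6.74% of all genes. Slc25a20 (0.30 ± 0.23), Acox3 (0.27 ± 0.23) and Abcd3 (-0.26 ± 0.18) were the other genes with the lowest p-values.

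On the low-fat diet there was 1 control and 1 stress library, so the difference has no replicate check and no test was made. Of the 36 genes, 29 reached 10 CPM in either library, and 1 of them was at least 2-fold higher in the stress library, against 1.64% of 9480 genes at that level, while 0 were at least 2-fold lower, against 0.770%. That gene was again Acaa1b, with 3.69 CPM in the control and 10.1 CPM in the stress library (2.69-fold). The stress library also held more Krt5 (50.7 against 11.4 CPM) and Upk1a (24.7 against 5.96 CPM), and their part in the Acaa1b level was not tested. The median log2 ratio of the 29 genes was -0.03, and that of all 9480 genes was -0.09.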

How the data were processed

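For 16 libraries the authors deposited raw gene counts and FPKM values (fragments scaled to gene length and library size), and both were used as deposited. STAR 2.6.1d, DESeq2 1.20.0, edgeR 3.24.3 and the mouse build mm10/GRCm38 are named in the submitters' processing notes, and the counting program and its strand setting were not given in the sources used here. Groups came from the sample labels. The members and all gene lists were chosen with earlier results of these data known. Control high-fat preadipocyte libraries 1 and 3 differed far less than any other pair of their group (7.01% of genes against 52.8% to 59.7%). They still differed by more than sampling noise, with 21.45% of genes at an unadjusted chi-square p below 0.05. Their counts were summed into 1 library, except in the alternatives that kept them as 2. Their values were averaged in the fits on FPKM and in the mean FPKM and ranks. The CPM ranges and medians in the text, and the checks of overlap, took every library as deposited, so the pair counts as 2 libraries there.

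From the counts, each comparison was fitted over all genes passing filterByExpr with the edgeR 4.0.16 quasi-likelihood test (TMM scaling, R 4.3.3), with Benjamini-Hochberg adjusted p below 0.05 as the call. The SE given with an edgeR log2 fold change was derived from that test, as the size of the log2 fold change divided by the square root of the F statistic. CPM, counts scaled to library size, used TMM scaling over all 16 libraries. The fits were tested on simulated data, in which 93% (fractions), 84% (stress in preadipocytes), 75.5% (stress in adipocytes), 25.5% (interaction) and 84.5% (diet) of 200 genes changed 4-fold were recovered. The changed genes were drawn from those above a lower limit of mean CPM. Smaller changes were not simulated, so these shares do not tell how many of those would be found. Levels were compared between genes on FPKM alone. In every library, for 100% of genes with at least 100 counts, the deposited FPKM times the deposited gene length over the count was 1 constant within 1%, so that length is the divisor. As an alternative, FPKM was rescaled to the longest GENCODE M21 protein-coding transcript. All members are accounted for. Some genes of the other pathway lists are not reported here. In the fraction comparison the text gives the values of the members with the largest and smallest difference of each step and of paralogs, and in the other comparisons those with the 3 lowest p-values in each direction.

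Alternatives were DESeq2 1.42.0, limma 3.58.1 on log2(FPKM + 1) and log2(FPKM + 0.1), RLE scaling, no filter, leaving out each library, the near-identical pair kept as 2 libraries, control or stress libraries alone, all 16 libraries in 1 fit, leaving out the low-complexity adipocyte libraries, and a replicate block. Leaving out stress preadipocyte libraries 3 and 4, the transcript length and the replicate block of the diet comparison were chosen after seeing the data. The block took libraries 1 and 3 as 2 libraries wherever it held preadipocytes. As a check of pairing, deviations from the group means over 9729 genes correlated between same-numbered control and stress high-fat preadipocyte libraries at 0.125, 0.652, 0.13 and 0.185, which the rule set for this check (each above 0.1) takes as paired. Differently numbered ones correlated at -0.561 to 0.262, and 3 of the 4 control libraries correlated most with a stress library of another number. The labels do not say what the numbers share.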

Additional observations from a re-analysis of the deposited data

How the results depend on the processing

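Across the fractions, between 32 and 34 of the 36 genes were called higher and 0 lower under all 24 alternatives. Acox3 lost its call under 8 alternatives, and Acot2 and Crot each under 1 (control libraries alone). The sign of Cpt1a, which was never called, turned to -0.05822 with RLE scaling, -0.05827 with DESeq2, -0.09257 and -0.09717 with limma on log2(FPKM + 1) and log2(FPKM + 0.1), and -0.1901 in control libraries alone. Leaving out single libraries gave -0.1667 to 0.2062 for Cpt1a, and it was below 0 in 4 cases, -0.04614 (stress preadipocyte 1), -0.009802 (stress preadipocyte 2), -0.1667 (control adipocyte 2) and -0.03148 (stress adipocyte 3). RLE scaling moved the median of all genes from -0.22 to -0.32. The mitochondrial median was 3.03 in stress libraries alone, against 2.73. Acaa1b was 169-fold higher in stress libraries alone, 36.7-fold without stress preadipocyte libraries 3 and 4, and 99.5-fold without the low-complexity libraries. The causes were not tested.

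In the stress comparison of preadipocytes, leaving out stress libraries 3 and 4 gave -0.1768 for Hadha and -0.02251 for Hadhb. In adipocytes, the medians of the mitochondrial and peroxisomal genes (0.19 and 0.08) were 0.51 and 0.53 without control library 1 and 0.54 and 0.38 without the low-complexity libraries, and the peroxisomal median was 0.37 without stress library 3. Without the low-complexity libraries Acaa1a was 0.2021 and Decr2 0.3023 in adipocytes, the interaction was 0.1381 for Acaa1a and 0.5818 for Ech1, and the peroxisomal median of the interaction was 0.50, against 0.11 (0.43 without control adipocyte library 1). No alternative of the stress, interaction and diet comparisons called any of the 36 genes, though DESeq2 gave Acaa1b no adjusted p for stress in preadipocytes and for diet. Over all genes, the adipocyte stress comparison called 14 higher and 37 lower without the filter on low counts, and 0 higher and 9 lower without control adipocyte library 2. With the replicate block 34 of the 36 genes were higher across the fractions and 0 were called for stress, the interaction or diet. Over all genes the block, with the near-identical pair kept as 2 libraries, called 4308 higher and 5755 lower across the fractions, 0 higher and 1 lower for stress in preadipocytes, and 2 higher and 0 lower for diet. With that pair kept as 2 libraries and no block these counts were 5035 and 6337, 0 and 0, and 0 and 0. Same-numbered control and stress adipocyte libraries correlated at -0.0272, -0.524 and -0.0558, which the same rule (each above 0.1) does not take as paired. With so few libraries a group, such correlations cannot tell what the numbers share. No paired analysis was possible because each group holds 1 library, for stress on the low-fat diet.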

Other observations

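Among genes next to the pathway that are not described above, Dbi, which binds acyl-CoA in the cytosol, was 14.2-fold higher in adipocytes (log2 fold change 3.83 ± 0.32, edgeR adjusted p = 1.91e-07), and Crat, the carnitine acetyltransferase, was 9.39-fold higher (3.23 ± 0.24, adjusted p = 7.01e-08). Eci3, a peroxisomal isomerase, had a log2 fold change of 5.83 ± 0.65 (adjusted p = 2.90e-06). It held 0.0434 to 0.517 CPM in high-fat preadipocyte libraries and 2.66 to 27.3 CPM in adipocyte libraries. The size of its fold change thus rests on very low preadipocyte values. Pdk4, the kinase that shuts pyruvate out of oxidation, was 8.90-fold higher (3.15 ± 0.35, adjusted p = 2.67e-06). Slc22a5, the plasma membrane carnitine transporter, was not called (0.05 ± 0.17, adjusted p = 0.817). Tfam, a factor of mitochondrial DNA, was not called either (0.21 ± 0.22, adjusted p = 0.443), while the import pore gene Timm23 was 4.63-fold higher (2.21 ± 0.23, adjusted p = 1.62e-06).

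The 250 bases before the RefSeq starts of Acaa1a and Acaa1b had the same base in 128 of 280 aligned columns (45.7%), although 34% of the 50-base stretches of the Acaa1a transcript also occur in that of Acaa1b. The RefSeq start of Acaa1a lies inside the gene as deposited.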
